A study of Mus musculus with 9 samples.

Results

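CircRNAs of Myt1l, Bcl11b and Runx1t1, genes of neuronal transcription regulators, were chosen as all entries of the count table that lie on the strand of these genes and within their mm9 coordinates. They number 10 of 5281 circRNAs, of which 6 derive from Myt1l, 2 from Bcl11b and 2 from Runx1t1. The genes were chosen by the levels of 3 of their circRNAs, which had been seen to differ between the cell types in these same libraries, so that the members' values in those comparisons are a description and support no test.

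Cells of 3 kinds, namely proliferative progenitors (PP), those in differentiative division (DP) and newly formed neurons (N), were FAC-sorted from the lateral cortex, freed of meninges and ganglionic eminences, of E14.5 embryos of C57BL/6 mice heterozygous for both the Btg2-RFP and the Tubb3-GFP reporter, which all groups carried. PP were RFP-negative and GFP-negative, DP were RFP-positive and GFP-negative, and N were GFP-positive irrespective of RFP, so that 2 reporters alone defined the groups. Each group comprised 3 libraries of RNA treated with RNase R, which degrades linear RNA, with total counts between 2962787 (PP replicate 3) and 8015311 (DP replicate 3), of which between 83572 (PP replicate 3) and 287983 (N replicate 2) lay outside 27 very abundant entries. Whether libraries with the same number came from the same embryos was not stated. Levels are given in CPM, the count relative to a library size scaled by the TMM method, in the usual CPM unit, and a floor of 3 counts corresponded to 1.39 CPM in the shallowest library (PP replicate 3) and to 0.340 CPM in DP replicate 1. In these sorted bulk samples, fewer cells that hold a circRNA and less of it per cell cannot be told apart.

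A circRNA forms when the end of an exon is spliced back to the start of the same or an earlier exon, which closes a ring without free ends. Many genes active in neurons give circRNAs that gather in postmitotic cells. Myt1l encodes a zinc finger protein that represses genes of other lineages in neurons, Bcl11b (also Ctip2) a zinc finger protein needed by corticospinal neurons of the deep layers, and Runx1t1 a corepressor of the ETO family that recruits histone deacetylases.

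PP replicate 3 and N replicate 1 stood apart from their replicates, and values that moved most with them are given with and without them. They were also the shallowest libraries, with 83572 and 102958 counts outside the 27 very abundant entries, against at least 124283 in the others. Their median counts per circRNA were 7 and 6, against at least 12 in the others. The part of depth in their standing apart was not tested. Spearman's rho of the counts, taken over circRNAs, which are not independent of one another, was 0.923 between PP replicates 1 and 2 but 0.717 and 0.707 when either was set against PP replicate 3. Among the N libraries it was 0.948 between replicates 2 and 3, and 0.797 and 0.834 when these were set against replicate 1.

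The backsplice junctions show how the members of a gene are related, and each is written with the last 25 bases of the last exon in lower case and the first 25 bases of the first exon in capitals. In Myt1l (chr12:30213249-30608074, plus strand, ENSMUSG00000061911), a gene with 25 exons in its annotated transcript, the junctions of 5 circRNAs combine only 3 last exons with 4 first exons. They are named here by their exons, and all coordinates are those of mm9.
Myt1l exons 10-19, chr12:30511731-30571050: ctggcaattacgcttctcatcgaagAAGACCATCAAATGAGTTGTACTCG
Myt1l exons 10-21, chr12:30511731-30580179: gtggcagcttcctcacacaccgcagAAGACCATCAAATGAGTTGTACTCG
Myt1l exons 11-18, chr12:30517153-30540148: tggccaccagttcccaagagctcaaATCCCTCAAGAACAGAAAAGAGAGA
Myt1l exons 12-21, chr12:30521215-30580179: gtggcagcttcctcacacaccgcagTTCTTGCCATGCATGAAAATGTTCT
Myt1l exons 19-21, chr12:30570988-30580179: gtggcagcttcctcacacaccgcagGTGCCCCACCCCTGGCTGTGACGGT
The circRNAs of exons 10-19 and 10-21 share the capitals and differ in the exon joined to them, and those of exons 10-21, 12-21 and 19-21 share the lower case. The circRNA of exons 11-18 (CiCo_mm9_circ_001320), whose values had led to the choice of Myt1l, shares neither side of its junction with another member.

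The circRNAs of Bcl11b (chr12:109148613-109241812, minus strand, ENSMUSG00000048251, 4 exons) were each a single exon closed on itself, and those of Runx1t1 (chr4:13670583-13820796, plus strand, ENSMUSG00000006586, 12 exons) both started at exon 3.
Bcl11b exon 2, chr12:109227675-109228040: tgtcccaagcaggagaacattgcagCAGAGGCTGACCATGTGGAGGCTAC
Bcl11b exon 3, chr12:109203882-109204097: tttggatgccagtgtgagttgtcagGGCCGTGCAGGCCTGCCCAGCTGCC
Runx1t1 exons 3-6, chr4:13762780-13774104: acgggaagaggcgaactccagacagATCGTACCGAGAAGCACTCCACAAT
Runx1t1 exons 3-9, chr4:13762780-13793179: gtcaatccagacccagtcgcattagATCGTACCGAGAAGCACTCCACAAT
The capitals of the Runx1t1 junctions are the same, and only the last exon tells these circRNAs apart. Bcl11b exon 3 (CiCo_mm9_circ_001253) and Runx1t1 exons 3-6 (CiCo_mm9_circ_004428) were the circRNAs whose values had led to the choice of these genes.

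The remaining member was exon 9 of Myt1l (CiCo_mm9_circ_001317, chr12:30496238-30496599), a ring of 362 bases that shares no exon with the other members.

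**Figure D1:**
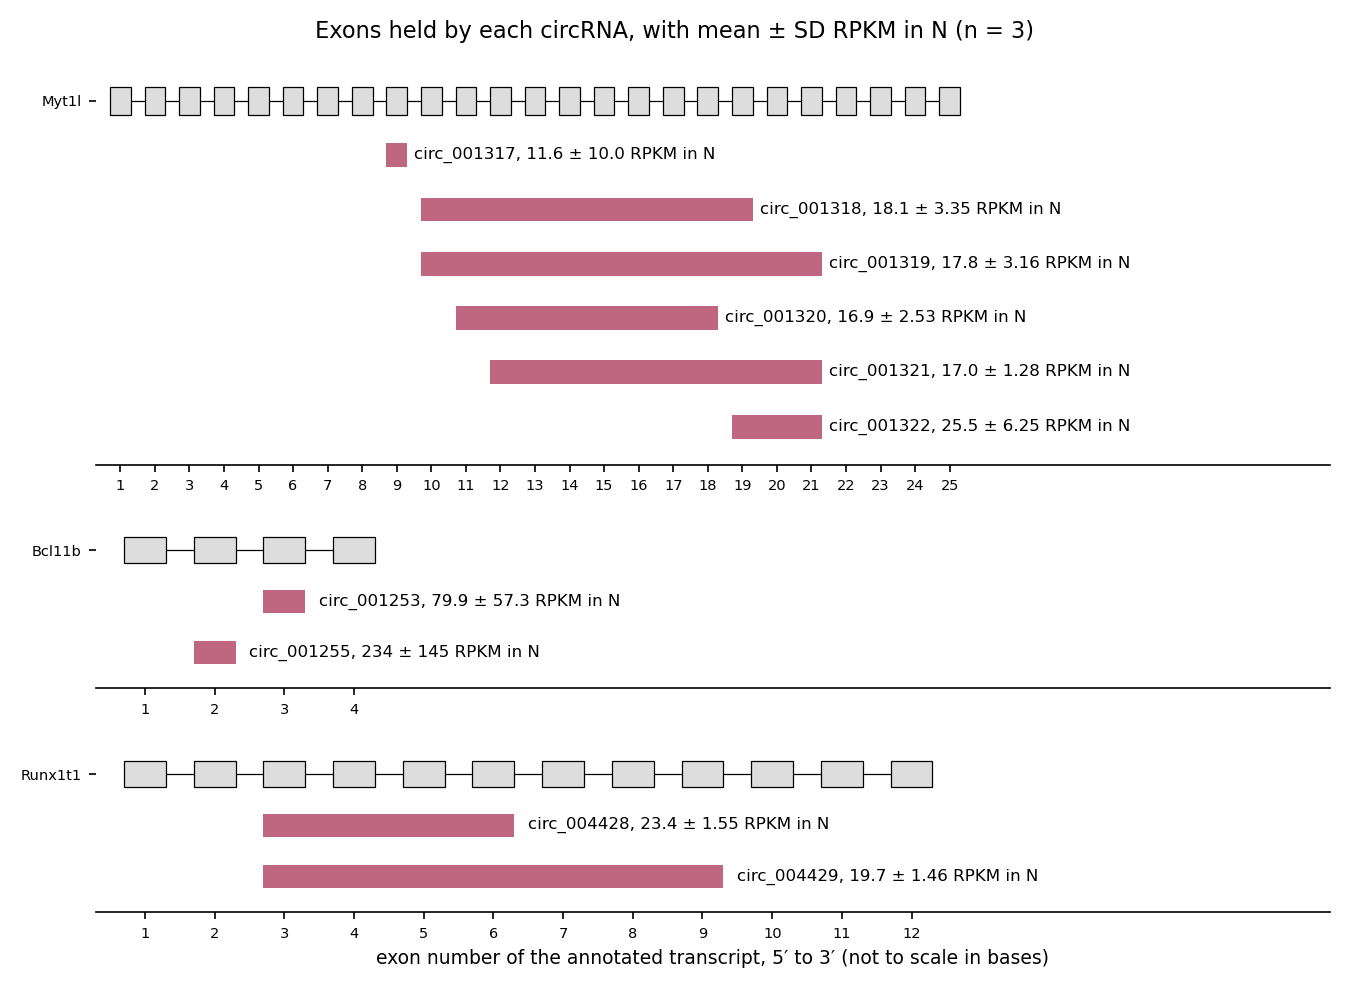
Exons of the annotated transcript of Myt1l, Bcl11b and Runx1t1 (grey boxes, numbered 5′ to 3′, not to scale in bases) and the exons held by each of the 10 circRNAs (red bars). The label of each bar gives its mean ± SD RPKM in N (n = 3), which lay between 11.6 and 25.5 for Myt1l and Runx1t1 and reached 234 for Bcl11b exon 2.

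All 10 members were made of coding exons, without any untranslated base, against 80.3% of circRNAs built from annotated exons and with an intron on each side. The counted length of each was that of its exons plus 1 base per exon, so that no intron was counted for them. The bases AG directly before and GT directly after the ring, which mark splice sites, were found in 10 of 10 members and in 99.9% of 5086 circRNAs. The exonic length was a multiple of 3 in 4 of the 10, which were Bcl11b exon 2, Bcl11b exon 3, Myt1l exons 19-21 and Runx1t1 exons 3-9, against 37.8% of all.

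Introns on the flanks were long. The downstream intron exceeded the median of 5353 bases in all 10 members, from 7176 bases after Myt1l exons 10-19 to 48257 bases after Bcl11b exon 3. Upstream, the intron before Runx1t1 exon 3 spanned 64087 bases, more than before 95.05% of circRNAs, whereas the introns before Myt1l exons 11-18 and 12-21, of 4450 and 3927 bases, were below the median of 7124. Members of a gene share flanking introns and are not independent in this. No member had an inverted match of at least 20 bases between the 1000 bases on its flanks, and such a match was found in 5.03% of circRNAs, so that its absence is common.

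The 6 circRNAs of Myt1l were at or near 0 in PP, intermediate in DP and highest in N. In PP, the circRNA of exons 11-18 had no count in any library, and those of exons 12-21 and 19-21 each had 2 counts, both in PP replicate 3. The circRNAs of exons 10-19 and 10-21 had 1, 2 and 3 counts in the 3 PP libraries. All PP counts of Myt1l were thus at or under the floor of 3 counts.

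For Myt1l exons 11-18, the DP libraries had 2.27, 3.82 and 3.60 CPM (20, 31 and 29 counts) and the N libraries 17.7, 23.97 and 21.1 CPM (40, 206 and 129 counts). Every N library lay above every DP library, and every DP library above every PP library. The level in DP was at least 3.65-fold and that in N at least 23.6-fold higher than in PP, against the mean of a floor of 3 counts per PP library. It was 6.48-fold higher in N than in DP by the group means (log2 FC 2.70, SE 0.33), with 3.23 CPM ± 0.843 in DP and 20.9 ± 3.12 in N (SD, n = 3).

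The circRNA of exons 10-21, the longest with 2563 bases, had 0.260, 0.323 and 1.39 CPM in PP, 6.12, 6.91 and 6.96 CPM in DP and 36.8, 52.7 and 47.7 CPM in N. Groups did not overlap, and PP replicate 3 was the highest PP library. The log2 FC was 3.64 (SE 0.50) from PP to DP and 2.78 (SE 0.34) from DP to N. Without PP replicate 3 and N replicate 1, these were 4.42 (SE 0.47) and 2.91 (SE 0.17). The circRNA of exons 10-19, which holds 10 of its 12 exons, followed it in all libraries, with log2 FCs of 3.44 (SE 0.51) and 2.83 (SE 0.34), or 4.21 (SE 0.48) and 2.97 (SE 0.18) without the libraries that stood apart.

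For Myt1l exons 12-21, DP had 3.997 CPM ± 1.01 and N 25.1 ± 1.88 (SD, n = 3), and for exons 19-21 these were 1.32 ± 0.145 and 9.50 ± 2.32. No library of N overlapped one of DP for either circRNA. With only 2 counts in PP, the ratio of pooled counts between N and PP was 156 for exons 12-21 and 54.2 for exons 19-21. Exact 95% intervals, which like all intervals and floors here cover counting error only, were 43.0 to 1293 and 14.7 to 452. Without PP replicate 3, no count was left in PP.

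Exon 9 of Myt1l, with 119 counts in all, departed from the other circRNAs of the gene in 1 library. It had 1 count in PP (replicate 2), 11, 4 and 10 counts in DP and 0, 55 and 38 counts in N. N replicate 1, in which all other members were detected, had none, which allows up to 1.33 CPM, whereas the other N libraries had 6.40 and 6.21 CPM. Groups of N and DP overlapped for this reason alone, and the mean in N was 4.20 CPM ± 3.64 (SD, n = 3) with and 6.30 without that library (n = 2). The ratio of pooled counts was 5.48 between N and DP (exact 95% interval 3.49 to 8.89) and 66.8 between N and PP (11.7 to 2665). It did not pass the filter on low counts with all libraries and was not fitted there.

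Both circRNAs of Bcl11b were highest in N, with a wide spread among its libraries. The more abundant, exon 2 (CiCo_mm9_circ_001255), had 1.30, 1.13 and 7.90 CPM in PP, 7.93, 6.91 and 10.6 CPM in DP and 146, 44.4 and 67.3 CPM in N. PP replicate 3 overlapped DP, and the other PP libraries lay below every DP library. Its log2 FC was 1.55 (SE 0.65) from PP to DP and 3.33 (SE 0.58) from DP to N. Without PP replicate 3 and N replicate 1, these became 2.82 (SE 0.38) and 2.71 (SE 0.19), and the means were 1.22 CPM in PP and 55.9 in N (n = 2 each).

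Exon 3 of Bcl11b had 0.519, 0.323 and 0 CPM in PP (2, 2 and 0 counts), 2.27, 0.493 and 2.24 CPM in DP and 31.0, 6.75 and 14.2 CPM in N. DP replicate 2, with 4 counts, overlapped PP, and all N libraries lay above DP. From DP to N the log2 FC was 3.28 (SE 0.58), and 2.59 (SE 0.34) without the libraries that stood apart. Both exons were highest in N replicate 1 and lowest in N replicate 2.

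The circRNAs of Runx1t1 were low in both progenitor groups and highest in N. For exons 3-6 the libraries of PP had 0.260, 0.809 and 3.72 CPM, those of DP 0.453, 1.23 and 1.12 CPM and those of N 16.4, 15.2 and 14.4 CPM. PP and DP overlapped, and the N libraries lay close together and above both. From PP to DP the log2 FC was -0.42 (SE 0.68), and its sign rested on PP replicate 3, since without that library and N replicate 1 it was 0.64 (SE 0.62). From DP to N it was 4.01 (SE 0.52) with and 3.98 (SE 0.28) without them.

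Runx1t1 exons 3-9 (CiCo_mm9_circ_004429) had 0.519, 0.970 and 4.18 CPM in PP, 1.13, 2.10 and 1.49 CPM in DP and 22.6, 25.6 and 22.5 CPM in N. Here too PP replicate 3 exceeded every DP library. The log2 FC from PP to DP was 0.04 (SE 0.56), or 0.98 (SE 0.51) without the libraries that stood apart, and from DP to N it was 3.90 (SE 0.46), or 3.93 (SE 0.23) without them. With 1 library left out in turn, the log2 FC from PP to DP ran from -0.41 to 0.99, so that its sign was not fixed.

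**Figure D2:**
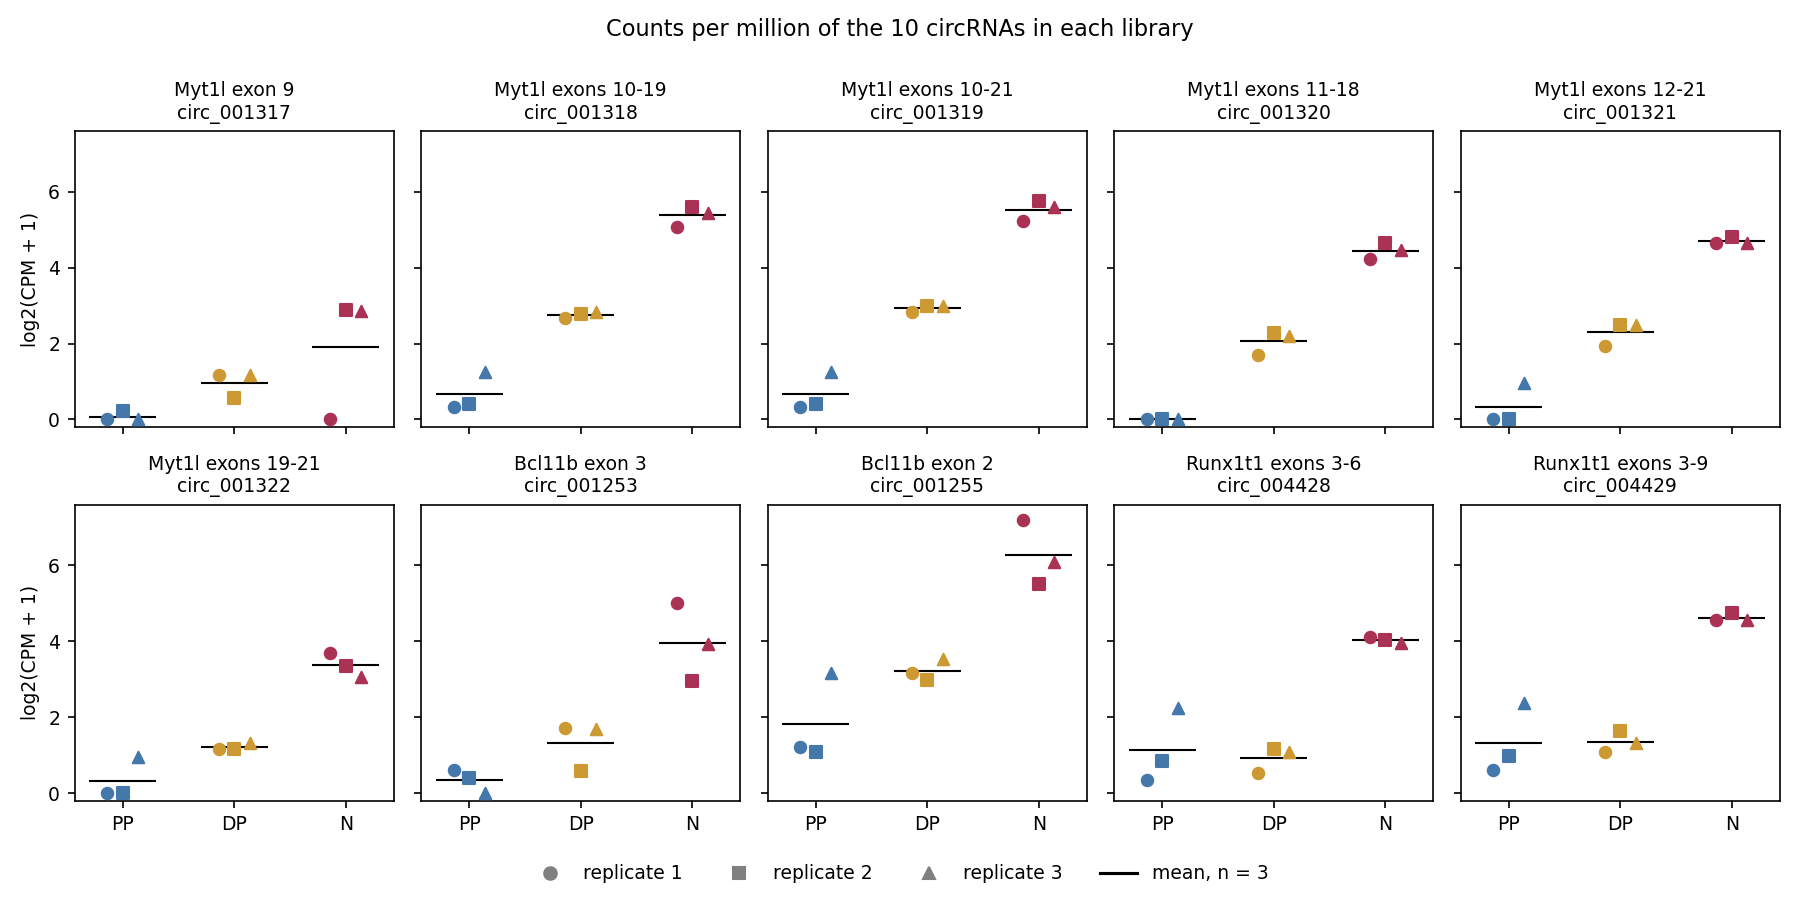
Level of each of the 10 circRNAs in the 9 libraries as log2(CPM + 1), by cell type (PP blue, DP yellow, N red), with the replicate number given by the symbol and the mean over 3 libraries as a line. In N all members but Myt1l exon 9 lay above every DP library, and N replicate 1 had the highest value for Bcl11b and no count for Myt1l exon 9.

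Of the 9 members that passed the filter on low counts, 9 were past an adjusted p of 0.05 and higher in N than in DP in edgeR's quasi-likelihood test, where 9.03% of the 4406 circRNAs tested were and 18.8% passed in either direction. From PP to N these were 9 of 9, against 13.6% of all that were higher and 28.0% that passed in either direction, and from PP to DP 4 of 9, against 1.48% of all that were higher and 1.86% that passed in either direction. Replicates did not overlap, with N above DP, for 9 of 10 members and 17.4% of all 5281 circRNAs, with N above PP for 9 of 10 and 16.9%, and with DP above PP for 6 of 10 and 10.1%. No member lay below PP in all DP libraries, as 8.75% of all circRNAs did. These comparisons chose the genes, so that nothing is read from the counts, and members of a gene share exons and reads. Without PP replicate 3 and N replicate 1, all 10 were fitted, and 7 were past the threshold and higher in DP than in PP, against 9.08% of 4714 circRNAs.

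Relative to one another, the genes kept no fixed proportion. The count ratio of Bcl11b exon 2 to Myt1l exons 10-21, which does not depend on library scaling, was 5, 3.5 and 5.67 in the PP libraries, 1.30, 1 and 1.52 in DP and 3.96, 0.843 and 1.41 in N. N replicate 1, with 329 counts of the former and 83 of the latter, was thus closer to PP than to the other N libraries in this ratio. The ratio of Runx1t1 exons 3-9 to Myt1l exons 10-21 was 2, 3 and 3 in PP, 0.185, 0.304 and 0.214 in DP and 0.614, 0.486 and 0.473 in N. For this ratio the 3 cell types did not overlap and DP was lowest, but PP ratios rested on at most 3 counts of Myt1l. Over the 9 libraries, Pearson's r of log2(CPM + 1) between the circRNAs that had led to the choice of the genes was 0.883 for Myt1l and Bcl11b, 0.812 for Myt1l and Runx1t1 and 0.799 for Bcl11b and Runx1t1, as a description of libraries that fall into 3 groups.

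**Figure D3:**
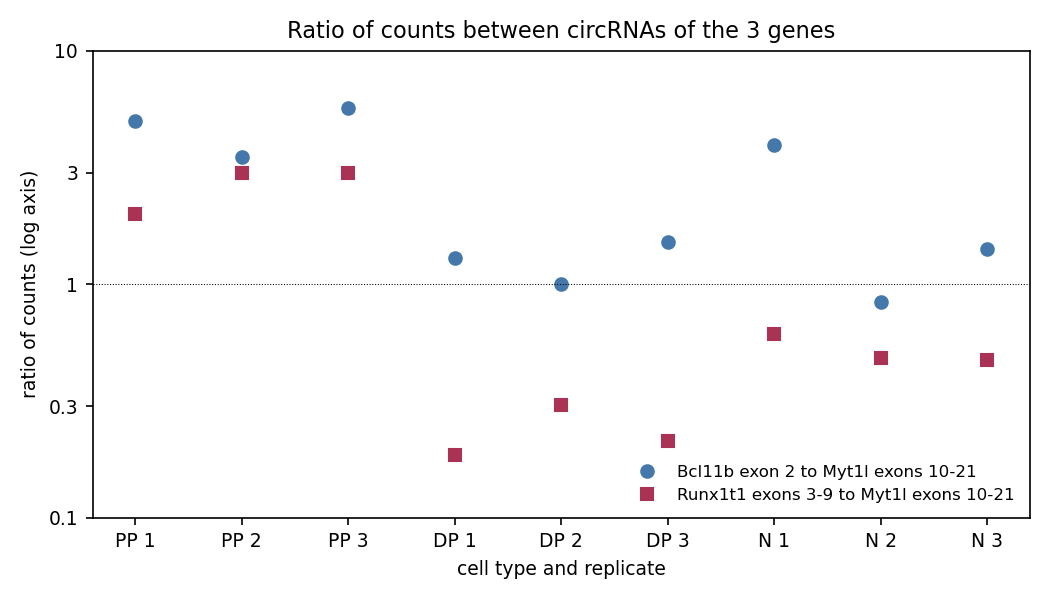
Ratio of the counts of Bcl11b exon 2 (blue circles) and Runx1t1 exons 3-9 (red squares) to those of Myt1l exons 10-21 in each of the 9 libraries, on a log axis. The Bcl11b ratio of N replicate 1, 3.96, lay above the 0.843 and 1.41 of the other N libraries, and the Runx1t1 ratio was lowest in DP.

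Markers of the cell types were summed to check the labels. The 23 circRNAs of 10 of 25 neuronal marker genes, of which Cntn2 was the most abundant, summed to 14.02, 17.6 and 24.2 CPM in PP, 97.96, 69.2 and 108 CPM in DP and 329, 346 and 352 CPM in N. All 16 that were tested were higher in N than in PP. N replicate 1, the highest library for Bcl11b exon 2, was the lowest N library in this sum. The 25 circRNAs of 8 of 21 markers of PP, led by Ptprz1, summed to 372, 386 and 500.1 CPM in PP, 163, 194 and 170 CPM in DP and 100.2, 130 and 107 CPM in N, and 18 of 22 tested were lower in N than in PP. Those of Ptprz1 and Cdh2 did not pass, and they made up most of the sum in N. The most abundant of Ptprz1 had means of 78.2 CPM in PP, 25.4 in DP and 47.4 in N. For that of Cdh2 these were 31.5, 23.9 and 28.6 CPM. For DP only 2 of 13 marker genes had circRNAs, Mfng and Rhbdl3, whose 4 circRNAs summed to 37.7, 27.98 and 65.997 CPM in PP, 72.03, 83.8 and 88.2 CPM in DP and 20.4, 7.21 and 14.2 CPM in N. All 4 were lower in N than in DP in edgeR's test. Only 1, of Mfng, was higher in DP than in PP in that test (adjusted p = 0.026). With DP replicate 1, 2 or 3, PP replicate 1 or 2 or N replicate 3 left out, it did not pass (adjusted p between 0.0509 and 0.139). It still passed without PP replicate 3, N replicate 1 or N replicate 2. PP replicate 3 was the highest PP library in all of these sums, as it was for Runx1t1 and for Bcl11b exon 2, and the part of other cell types in its values was not tested. Many defining markers, among them Pax6 and Sox2 for PP, Eomes for DP and Tubb3 and Dcx for N, had no circRNA to analyse here.

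Bcl11b is also expressed in striatal neurons and in some interneurons. Of 18 markers of interneurons only Erbb4, a receptor of neuregulins, had circRNAs, and its 3 circRNAs summed to 0, 0.162 and 2.32 CPM in PP, 0, 0 and 0.248 CPM in DP and 6.20, 6.75 and 3.43 CPM in N. N replicate 1, the highest for Bcl11b, had 6.20 CPM in this sum and N replicate 2 had 6.75, on few counts. The circRNAs of Erbb4 did not pass the filter on low counts, and the part of interneurons in the Bcl11b values was not tested. Dlx1, Dlx2, Gad1, Gad2 and Lhx6, which define interneurons, had no circRNA to analyse here, nor had any of 18 markers of vessels, blood, meninges and microglia, and the part of such cells was not tested.

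Levels between circRNAs of a gene were compared as RPKM, which is CPM per kilobase of counted length, because these differences had not been used to choose the genes. In Bcl11b, exon 2 was higher than exon 3 in 9 of 9 libraries, with 234 RPKM ± 145 against 79.9 ± 57.3 in N (SD, n = 3). Without N replicate 1 these means were 152 and 48.3 RPKM (n = 2). The mean difference of log2(RPKM + 0.1) was 2.19 (SD 2.20, n = 9), with p = 0.00391, the smallest that 9 libraries allow, in an exact sign-flip permutation test (two-sided, 0.0273 adjusted over 7 pairs of neighbours in the order of the 3 genes). The test takes the 9 libraries as independent, and whether those with the same number share embryos was not stated. In PP replicate 3, where exon 2 had 17 counts and exon 3 had none, the added 0.1 sets the size of the log difference. With any 1 library left out, exon 2 was still higher in all that remained, and the mean difference was 1.4965 without PP replicate 3. The adjusted p was then 0.0547, which comes from the smallest unadjusted p that 8 libraries allow, so that missing the threshold says nothing about stability.

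In the order of mean RPKM of Myt1l, exons 19-21 came first, followed by exons 10-19, 10-21, 12-21, 11-18 and 9. None of the 5 steps in this order passed over the 9 libraries (exact sign-flip permutation tests, two-sided, adjusted p between 0.219 and 0.719). Exons 19-21 were higher than exons 10-19 in 3 of 3 DP and 3 of 3 N libraries but in 1 of 3 PP libraries, where with 0 to 3 counts the pseudocount sets the log difference. The last step, between exons 11-18 and exon 9, had a mean log2 difference of 0.54 (SD 2.67, n = 9) and turned to -0.28 without N replicate 1, in which exon 9 had no count. Between Runx1t1 exons 3-6 and 3-9 the mean log2 difference was 0.22 (SD 0.34, n = 9, exact sign-flip permutation test, adjusted p = 0.219), higher in 7 of 9 libraries. Most of these pairs share exons and thus reads.

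Where one ring lay within another, the count of the outer was never below that of the inner in 9 of 9 libraries, for each of the 7 such pairs. A read on a shared exon thus appears to add to every ring that holds that exon, and the counts of overlapping rings cannot be summed. If reads that cross the edge of a ring are counted for it too, the RPKM of short rings is raised relative to that of long ones, which was not tested. The counts also include all reads on the exons, not only those across a junction, and linear RNA left after RNase R cannot be told apart from circular RNA in them.

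Likeness in pattern was ranked among 2166 circRNAs of other genes at or above the median abundance, by Pearson's r of log2(CPM + 1) over the 9 libraries. Among these, those most alike to Myt1l exons 11-18 were of Cntn2, an adhesion protein of axons (r = 0.986) and Tiam2, an exchange factor for Rac (r = 0.984). The circRNA of Cntn2 went from 1.03 CPM ± 0.101 in PP to 9.66 ± 3.85 in DP and 114 ± 17.4 in N (SD, n = 3). Most like Bcl11b exon 3 were circRNAs of Sox5, a transcription factor of deep layer neurons (r = 0.983), of the gene model Gm15800 (r = 0.981) and of Sipa1l2, a regulator of Rap (r = 0.978). The Sox5 circRNA (CiCo_mm9_circ_005369) had 75.3 CPM in N replicate 1, 30.1 in N replicate 2 and 41.2 in N replicate 3, in the same order as both exons of Bcl11b. Nearest to Runx1t1 exons 3-6 were circRNAs of Agap1, a regulator of Arf proteins (r = 0.984), Lmo1, a LIM domain protein (r = 0.974), and Clec16a, a protein of endosomes (r = 0.971). The Agap1 circRNA had 4.63 CPM ± 1.26 in PP, 4.53 ± 0.692 in DP and 9.40 ± 0.312 in N. These circRNAs were selected for a high r and share libraries and depth with the members.

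Genes related by sequence had few circRNAs. Of the paralogs of the 3 genes, Bcl11a, which like Bcl11b is a subunit of BAF chromatin remodelling complexes, had 1 circRNA (CiCo_mm9_circ_000876) with 5.69 CPM ± 1.05 in PP, 12.8 ± 3.08 in DP and 29.7 ± 9.996 in N (SD, n = 3). It rose from DP to N (log2 FC 1.20, SE 0.32, adjusted p = 0.0174 in edgeR's test), but did not pass without DP replicate 1 (adjusted p = 0.0656) or DP replicate 2 (0.118). It is also one of the neuronal regulators described next. St18, a relative of Myt1l, had 1 circRNA with 0.310 CPM ± 0.537 in PP, 1.15 ± 0.578 in DP and 2.09 ± 1.32 in N, too few counts to be tested. Myt1, Cbfa2t2 and Cbfa2t3 had no circRNA to analyse here.

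Circular RNAs of other regulators of cortical neurons were both higher and lower in N. Of 70 such genes, 23 had 67 circRNAs that were tested. From DP to N, 11 circRNAs (16.4%) of 4 genes rose and 5 (7.46%) of 3 genes fell, against 9.03% and 9.80% of all circRNAs tested in these directions, and the median log2 FC was 0.40 against -0.02 for all. Of the 11 that rose, 7 were circRNAs of Sox5, and among the other 60 tested 4 rose (6.67%). With 1 circRNA per gene, 4 of 23 rose and 3 fell from DP to N. Examples were a circRNA of Sox5 (CiCo_mm9_circ_005363) with 2.85 CPM ± 0.578 in DP and 18.7 ± 3.87 in N (log2 FC 2.70, SE 0.39, adjusted p = 0.000239 in edgeR's test) and one of Klf7, a factor of axon growth, with 3.10 CPM ± 0.867 in DP and 15.1 ± 11.2 in N (SD, n = 3, log2 FC 2.19, SE 0.46, adjusted p = 0.00338). The log2 FC of Klf7 was 1.47 (SE 0.26) without the libraries that stood apart. The circRNAs of Tox3, an HMG box protein (log2 FC -2.40, SE 0.32, adjusted p = 0.000159) and of Zfhx4, a zinc finger homeobox protein (log2 FC -2.0003, SE 0.53, adjusted p = 0.0158) fell, the latter not past the threshold without DP replicate 3 (adjusted p = 0.0548) or N replicate 3 (0.0634). With scaling by total counts, where the median log2 FC of all circRNAs was -0.37, 6 rose and 1 fell. With 1 library left out, between 10 and 14 rose, and the number that fell was 1 without N replicate 3, 2 without DP replicate 1 or DP replicate 3, and 3 without PP replicate 1, DP replicate 2 or N replicate 2. It was also 3 with the replicate block. When PP replicate 3 and N replicate 1 were both left out, 23 rose and 10 fell, where 16.6% and 17.3% of all circRNAs did.

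From PP to N, 25 circRNAs (37.3%) of 10 of these genes rose and 7 (10.4%) of 3 genes fell, against 13.6% and 14.4% of all. With scaling by total counts 11 rose and 7 fell, and with 1 circRNA per gene 7 rose and 3 fell. With only the cell types compared, 16 of 61 tested rose and 7 fell. The circRNA of Sox5 named above had 2.24 CPM ± 1.71 in PP (log2 FC 3.28, SE 0.45, adjusted p = 9.56e-05 in edgeR's test), and without the libraries that stood apart the log2 FC was 3.89 (SE 0.35). From PP to DP, none of the 67 passed in edgeR's test, 5 had an unadjusted p under 0.05 and were higher and 7 lower, beside 6.22% and 5.22% of all 4406 circRNAs, and DESeq2 called 1, which was lower. Without PP replicate 3 and N replicate 1, 22 of the list passed in that step, 13 higher and 9 lower, where 9.08% of 4714 circRNAs passed as higher and 4.90% as lower.

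Many circRNAs of progenitor regulators were lower in N. Of 41 tested circRNAs of 18 genes, 20 (48.8%) fell from DP to N and 24 (58.5%) from PP to N, against 9.80% and 14.4% of all circRNAs tested that were lower, with median log2 FCs of -1.57 and -2.23. None rose in edgeR's or DESeq2's test nor at an unadjusted p under 0.05 with all libraries. Foxm1, a driver of mitotic genes, went from 9.55 CPM ± 3.56 in DP to 0.171 ± 0.175 in N, where it had 0, 3 and 1 counts (CiCo_mm9_circ_005335, log2 FC -5.25, SE 0.55, adjusted p = 3.78e-05), Tead2, a partner of Yap1, fell by 3.95 on the log2 scale (SE 0.38, adjusted p = 2.4e-05), and Gli3, an effector of Hedgehog signalling, fell by 4.59 from PP to N (SE 0.59, adjusted p = 5.93e-05), or by 5.61 (SE 0.38) without the libraries that stood apart. Without N replicate 2, the log2 FC of Foxm1 from DP to N was -6.09 (SE 0.77). That of Gli3 from PP to N was then -3.76 (SE 0.54). From PP to DP, none of the list passed in edgeR's test, 9 were lower at an unadjusted p under 0.05, beside 5.22% of all circRNAs, and DESeq2 called 1 lower. Without PP replicate 3 and N replicate 1, 9 passed as higher and 8 as lower in that step, beside 428 and 231 of all 4714 circRNAs. From PP to N, 3 then passed as higher and 24 as lower, where 21.6% and 20.6% of all 4714 circRNAs did.

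Of the circRNAs of partners of the encoded proteins, 1 or 2 passed the test in each comparison of N. Subunits of the BAF, NuRD, SIN3 and NCoR complexes, with which these proteins are known to work, and Cbfb, a partner of Runx proteins, had 53 tested circRNAs of 23 genes. From DP to N 1 passed, against 9.03% of all circRNAs tested that were higher and 9.80% that were lower. It was of Smarcd3, a BAF subunit (3.74 CPM ± 1.55 to 10.1 ± 4.66, log2 FC 1.37, SE 0.40, adjusted p = 0.0262). From PP to N 2 passed, both higher and of Smarca4, the BAF ATPase, against 13.6% and 14.4% of all that were higher and lower. One of these (CiCo_mm9_circ_006531) had 11.3 CPM ± 5.04 in PP and 24.4 ± 3.87 in N (log2 FC 1.07, SE 0.34, adjusted p = 0.0313). Without N replicate 1, none passed as higher and 2 passed as lower from DP to N, and Smarcd3 had a log2 FC of 0.99 (SE 0.34, adjusted p = 0.0621 in edgeR's test). The circRNA of Smarca4 named above had a log2 FC of 1.09 (adjusted p = 0.0275 in edgeR's test) without N replicate 1 and of 0.80 (adjusted p = 0.0291) without PP replicate 3, but did not pass without N replicate 3 (adjusted p = 0.114), PP replicate 2 (0.0566), DP replicate 1 (0.0547) or DP replicate 2 (0.0536). Without N replicate 3, or with only the cell types compared, none of the list passed from PP to N, and without PP replicate 1 or PP replicate 2 the list also had 2 and 3 calls that were lower. Without PP replicate 3 and N replicate 1, 4 passed as higher and 5 as lower from DP to N, and 7 as higher and 3 as lower from PP to N, where 16.6% and 17.3% of 4714 circRNAs passed as higher and lower in the former comparison and 21.6% and 20.6% in the latter. With scaling by total counts, with DP replicate 1 left out or with DP replicate 2 left out, none passed in either comparison. From PP to DP none passed in edgeR's or DESeq2's test, and 3 were higher at an unadjusted p under 0.05, beside 6.22% of all circRNAs.

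**Figure D4:**
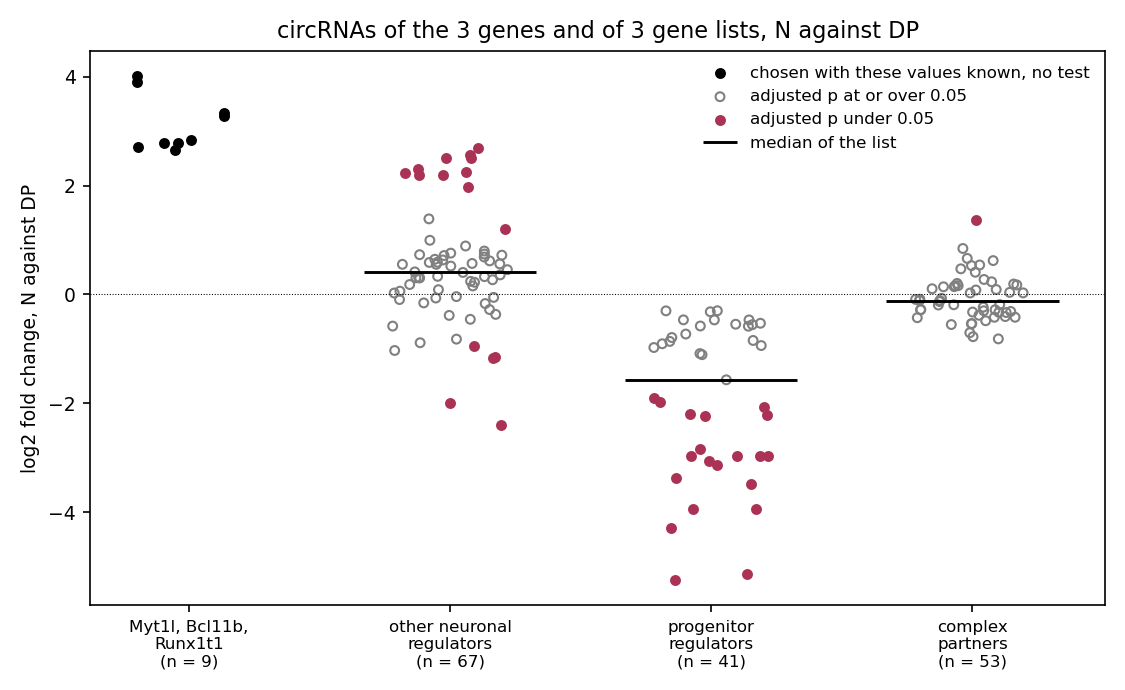
Log2 FC from DP to N (edgeR) of the 9 fitted circRNAs of Myt1l, Bcl11b and Runx1t1 (black, chosen with these values known) and of the circRNAs of 3 gene lists (red where the adjusted p was under 0.05, open where it was not, line at the median of the list). Members lay between 2.65 and 4.01, neuronal regulators had a median of 0.40, progenitor regulators of -1.57 and complex partners of -0.11.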

How the data were processed

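Reads of strand-specific libraries were aligned by the authors with gsnap to mm9, and circRNAs were predicted with find_circ, with no minimum of junction reads. The deposited counts are whole reads per circRNA from featureCounts, not normalized by the authors, and the deposited table also gives a counted length. The submitters' processing notes name bcl2fastq 1.8.4 and Subread 1.6.0. How reads on overlapping circRNAs were assigned was not stated. Between 94.7% and 98.2% of the counts of a library lay on 27 entries outside the genes described, so that libraries were scaled with TMM.

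Genes, exons and sequences were read from GENCODE vM1 and the NCBIM37 genome, the same build as mm9. Differential expression used R 4.3.3 and edgeR 4.0.16 (filterByExpr, then the quasi-likelihood test with 9 libraries in one model, Benjamini-Hochberg adjustment over 4406 circRNAs, threshold 0.05). The procedure was run on simulated counts with the same spread for all circRNAs and no library that stood apart, unlike these data. There it recovered 171 of 191 changes from DP to N and 161 of 191 from PP to N. Of its calls, 8 of 179 and 12 of 173 were false. Order within a gene was compared by exact sign-flip permutation tests in Python 3.11.15 with scipy 1.17.1, after a pseudocount of 0.1. Alternatives were DESeq2 1.42.0, other scalings, filters and samples, a replicate block and a pseudocount of 1. The study calls the 3 replicates of each cell type biological, and how many embryos each library pooled was not given in the sources used here.

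Members and lists were chosen with earlier results of these data known. Named were all circRNAs of the members and of their paralogs and, from each list, per comparison and direction, up to 2 circRNAs of different genes with the largest log2 FC among those past the threshold, at or above the median abundance and without overlap of replicates, and the 3 circRNAs with the highest r to the circRNA that had led to the choice of each gene. Some items that this rule names are not reported here. Columns of all 9 samples were matched by the labels.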

Additional observations from a re-analysis of the deposited data

How the results depend on the processing

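The log2 FC from DP to N of the fitted members stayed positive in all alternatives run, between 2.35 (Myt1l exons 12-21, total counts) and 4.25 (Runx1t1 exons 3-6, 1 library left out). Scaling by total counts in place of TMM moved the median log2 FC of all circRNAs from -0.02 to -0.37 from DP to N and from -0.10 to -0.37 from PP to N. It gave 22 calls between DP and PP (95.5% higher in DP, in place of 79.3%), 407 between N and DP (20.6% higher in N, in place of 48.0%) and 649 between N and PP (32.5% higher in N, in place of 48.5%), where the main analysis gave 82, 830 and 1235. A minimum of 10 counts in every library, which left 1262 of 4406 circRNAs to test, gave 12, 134 and 283. Without PP replicate 3 and N replicate 1, chosen after seeing the data, 659, 1600 and 1988 passed, and with only the cell types compared 735 passed between N and PP. With each library left out in turn, between 37 and 183 passed between DP and PP, 552 and 1239 between N and DP and 984 and 1638 between N and PP, with 183 without PP replicate 3 and 140 without N replicate 1 between DP and PP. Deviations from the group means correlated by -0.0384 on average in 9 pairs of libraries that share a replicate number and by 0.0276 in 18 that do not, so that the numbers were not taken as pairing. With the replicate block 48 circRNAs passed between DP and PP (5 lower in DP, in place of 17), 1 complex partner in place of 2 between N and PP, and 3 neuronal regulators in place of 5 as lower in N than in DP.

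For neuronal regulators (main counts 0, 16 and 32 for DP against PP, N against DP and N against PP), total counts gave 7 and 18 in the latter comparisons, a minimum of 10 counts 7 and 17 of 41 tested, and 1 circRNA per gene 7 and 10. DESeq2 gave 1 between DP and PP. Without the 2 libraries, 22 passed between DP and PP and 33 between N and DP. For progenitor regulators (0, 20 and 24), a minimum of 10 counts, which removes circRNAs that are low in N, left 10 of 41 to test and gave 1 in each comparison of N, 1 circRNA per gene 11 and 14, and the cell types compared alone 15 between N and PP. DESeq2 gave 1 between DP and PP, and without the 2 libraries 17 passed there and 32 between N and DP. For complex partners (0, 1 and 2), total counts gave 0 in both comparisons of N, no filter gave 2 between N and DP, and a minimum of 10 counts gave 0 and 1 of 32 tested. DESeq2 gave 4, the cell types compared alone 0 and 1 circRNA per gene 1 between N and PP, and without the 2 libraries 3, 9 and 10 passed. With each library left out, the lists had 0 to 4 calls between DP and PP for either list of regulators, and complex partners 0 to 2 between N and DP and 0 to 5 between N and PP.

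The order in RPKM depends on the division by length. In CPM, Myt1l exons 19-21 against 10-19 turned to -1.88, exons 10-19 against 10-21 to -0.12 and Runx1t1 exons 3-6 against 3-9 to -0.59 (log2 difference), with adjusted p of 0.00684, 0.0365 and 0.00684 in exact sign-flip permutation tests, while exons 10-21 against 12-21 (1.03), 12-21 against 11-18 (0.56) and 11-18 against 9 (1.64) passed too. Where one ring holds the other (exons 10-19 or 12-21 in 10-21, and 3-6 in 3-9), the sign in CPM is fixed by an outer count that is never below the inner. With each library left out, Bcl11b exon 2 against exon 3 was between 1.4965 (without PP replicate 3) and 2.40, with an adjusted p of 0.0547 from the smallest unadjusted p that 8 libraries allow, and Myt1l exons 11-18 against 9 was between -0.28 and 0.92. Counts of 0 to 3 in PP limit all folds against PP for Myt1l. The causes of these shifts were not tested.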
